A study of Mus musculus with 4 samples.

Results

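Gene expression in the liver of mice labelled as Pnpla7 knockout (KO, Pnpla7-/-, strain C57BL/6N) was compared between 3 and 6 weeks of age. The comparison rests on 2 one-colour arrays, 1 for each age, and each array held RNA pooled from 5 livers. A gene was a member when its probe was well above background on both KO arrays, which held for 28100 of 43020 spots and for 19683 of 30026 genes. The value of a gene is its signal, the processed intensity divided by the 75th percentile of its array, and its age ratio is the log2 of the signal at 6 weeks over the signal at 3 weeks. The same study hybridised pools of 5 wild-type livers (WT, Pnpla7+/+, same strain) at 3 and 6 weeks, and those 2 arrays are used here for comparison. The labels give no treatment for any group, and the part of Pnpla7 that was deleted, the sex of the mice and the time of day are not given in the sources used here.

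PNPLA7 is a lysophospholipase that hydrolyses lysophosphatidylcholine and so yields glycerophosphocholine, from which free choline can be recovered. The weeks around weaning are a time of rapid change in mouse liver. Hepatocytes leave the cell cycle, the last fetal transcripts and the blood-forming cells disappear, and the metabolic and sex-dependent programmes of the adult liver are set up under the control of diet and growth hormone.

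With 1 array per group, no ratio below has a replicate check and none was tested on its own. The only error available was technical. Probes printed in 10 spots gave a log2 age ratio a median SD of 0.13 in KO and 0.10 in WT, and the difference between KO and WT ratios an SD of 0.16, all of which leave out differences between pools and between mice. On the 4 arrays 28714 to 30697 spots were well above background and none was saturated. The KO array at 6 weeks was the noisiest, with a coefficient of variation of 11.1% over its spike-in probes against 4.32% to 4.77% on the other arrays. Hepatocyte markers were bright on both KO arrays: albumin (Alb) read 349.6 at 3 weeks and 382 at 6 weeks. Of the 23 measured hepatocyte markers 0 differed by 2-fold between the ages, beside 9.06% of all genes. None of 4 Y-linked genes was well above background on a KO array, while Xist, the X-inactivation transcript, read 1.29 at 3 weeks and 1.79 at 6 weeks.

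Pnpla7, the targeted gene, was well above background on all 4 arrays. It read 6.7 in KO at 3 weeks and 4.42 in KO at 6 weeks, against 7.54 and 9.65 on the WT arrays. Its log2 age ratio was -0.60 in KO and 0.36 in WT. The single probe lies on chromosome 2 of mouse build mm9 (chr2:24908961-24909192, spliced), about 4129 bases into the transcript. Its sequence is shown because the identity of the KO arrays rests on the labels and not on this probe.

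Pnpla7 probe: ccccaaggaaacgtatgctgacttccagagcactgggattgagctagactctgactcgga

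Whether this stretch lies inside the deleted part is not given, so the probe checks nothing and KO stands throughout for the arrays labelled KO. Skeletal muscle genes were also read on the KO arrays, which are labelled as liver, and the source of that signal was not tested. Of 50 skeletal muscle markers 47 were well above background on both KO arrays, with a summed signal of 108 in KO at 3 weeks and 78.6 in KO at 6 weeks, beside 7.35 and 9.17 in WT at these ages.

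Between 3 and 6 weeks 884 genes were at least 2-fold higher in KO liver, 4.49% of the genes measured, and 899 were at least 2-fold lower, 4.57%. Beyond 4-fold there were 171 higher and 247 lower genes. The median log2 ratio over all genes was 0.08, with an SD of 0.68 across genes. The share past 2-fold depended on brightness: it was 9.06% over all genes, 9.78% among genes whose brighter KO signal was below 0.1, 12.6% between 0.1 and 1, 6.10% between 1 and 10, and 5.43% at 10 and above, where 97 genes were higher and 48 lower. A further 621 genes were well above background in KO only at 6 weeks and 1666 only at 3 weeks, and their bounds were at least 2-fold in 438 and 476 cases. Where a gene had a second usable probe, that probe kept the sign for 246 of 287 genes past 2-fold and was itself past 2-fold for 143.

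A test over all genes was possible only for age across both genotypes. limma, fitted to the 4 arrays with terms for age and genotype and 1 residual degree of freedom, called 0 of 18870 genes at an adjusted p of 0.05, in either direction. At an unadjusted p of 0.05 there were 2883 genes, 15.3%, and the smallest adjusted p in this limma fit was 0.074. When the variance prior was given a trend, 17 genes were called higher and 60 lower, and without the genotype term 0 and 1.

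**Figure D1:**
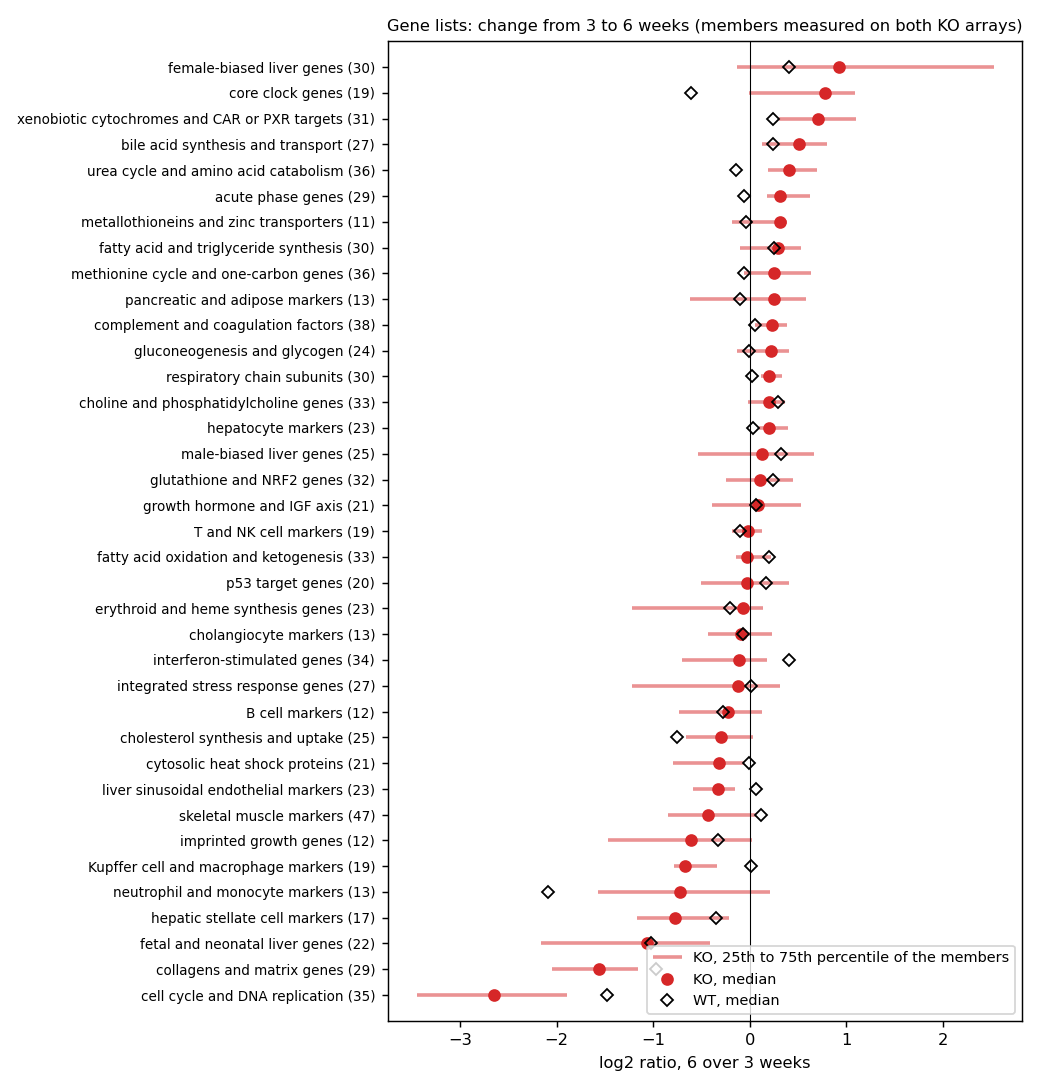
Median log2 ratio of 6 over 3 weeks for each gene list (horizontal axis). Filled circles are KO medians over members measured on both KO arrays (number in brackets), red bars span the 25th to the 75th percentile of those members, and open diamonds are WT medians over members measured on all 4 arrays. The cell cycle list lies lowest in KO, at -2.65, and the female-biased list highest, at 0.93.

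The lower side was led by genes of cell division. Of 42 cell cycle and DNA replication genes on the array 35 were measured on both KO arrays, and 30 of them were at least 2-fold lower at 6 weeks, none higher, against 4.57% of all genes lower. Their median log2 ratio was -2.65. In bulk RNA fewer dividing cells and less RNA in each such cell cannot be told apart. Cdc20, which activates the anaphase-promoting complex, read 2.23 at 3 weeks and 0.11 at 6 weeks, 20.4-fold lower. Ccnb1, the mitotic cyclin B1, read 0.523 and 0.0278 (log2 ratio -4.23, and as little as -2.83 with other processing). Ube2c, the ubiquitin-conjugating enzyme of the same complex, read 0.863 and 0.0537 (-4.01). Cdc20 was thus among the 15 lowest ratios of all bright genes, those with a signal of 1 or more on a KO array.

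Cdkn3, a phosphatase acting on cyclin-dependent kinases, had a log2 ratio of -3.92, and as little as -2.63 with other processing. Ccna2, cyclin A2, had -3.61. Tpx2, a spindle assembly factor, had -3.70 on its brighter probe and -0.15 on the second, so its size is uncertain. The proliferation antigen Mki67 read 2.14 and 0.204 (-3.40), and Cdk1, the mitotic kinase, read 0.418 and 0.0454 (-3.20). Top2a, the topoisomerase of replicating cells, was well above background only at 3 weeks (0.279) and was at least 20.6-fold lower at 6 weeks. Replication licensing genes were lower by varying amounts, from -3.59 for Mcm5 and -2.47 for Mcm6 to -1.02 for Mcm7. The 5 members short of 2-fold were Hmmr (-0.56), Rrm2 (-0.50), Pcna (-0.33), Tyms (-0.14) and Tk1 (-0.03). Of these Rrm2 and Tk1, which supply deoxynucleotides, were past 2-fold in WT, at -2.26 and -1.04.

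In WT liver 28 of the same 35 genes were also lower by 2-fold at 6 weeks and 1 was 2-fold higher, with a median of -1.48. Of all genes measured on all 4 arrays 3.22% were 2-fold lower in WT and 2.22% higher. The KO ratio lay below the WT ratio for 31 of 35, the median difference was -1.19, and 23 of the differences were at least 2-fold, where 3.46% of all genes had a difference that large in this direction. The gap lay mostly at the later age. The median log2 of KO over WT was -0.32 at 3 weeks and -1.70 at 6 weeks. Cdc20 shows it: 2.48 and 1.13 in WT beside 2.23 and 0.11 in KO. Ccnd1, the growth-factor-driven cyclin D1, had ratios of opposite sign, with 4.98 and 2.36 in KO and 4.35 and 12.9 in WT. With 1 array per group this difference could not be tested.

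The promoters of 3 of these mitotic genes are printed because they carry the cell cycle homology region. Proteins repressing cell cycle genes in resting cells are known to recognise that region. The CCAAT box is marked beside it and is not a mark of repression. Capitals mark the cell cycle homology region (TTTGAA) and the CCAAT box (CCAAT), searched on both strands in the 120 bases before the RefSeq start in build GRCm38.p6, and no printed match overlaps another. Cdc20 lies on the minus strand at chr4:118437344-118437463, Cdk1 on the minus strand at chr10:69352913-69353032 and Ube2c on the plus strand at chr2:164769809-164769928.

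Cdc20: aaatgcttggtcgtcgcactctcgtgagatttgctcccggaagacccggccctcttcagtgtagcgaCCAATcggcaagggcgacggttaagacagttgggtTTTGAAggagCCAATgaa

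Cdk1: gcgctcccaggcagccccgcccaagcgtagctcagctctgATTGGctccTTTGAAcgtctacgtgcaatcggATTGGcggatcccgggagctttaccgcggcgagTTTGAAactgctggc

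Ube2c: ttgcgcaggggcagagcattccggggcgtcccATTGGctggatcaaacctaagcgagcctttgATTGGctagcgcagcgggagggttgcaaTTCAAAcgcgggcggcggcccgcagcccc

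Each of the 3 holds 2 CCAAT boxes, and TTTGAA occurs once in Cdc20, 2 times in Cdk1 and once in Ube2c. Over the 250 bases before the start, a promoter was found for 24 of the 30 cell cycle genes that were 2-fold lower. CCAAT was present in 19 of them (79.2%) and in 37.5% of all 27025 promoters, and TTTGAA in 9 (37.5%) and in 18.3% of all. CCAAT was also present in 10 of 16 core clock genes with a promoter (62.5%). The motifs were chosen after the promoters had been looked at, and a match is a description of letters, not a site.

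**Figure D2:**
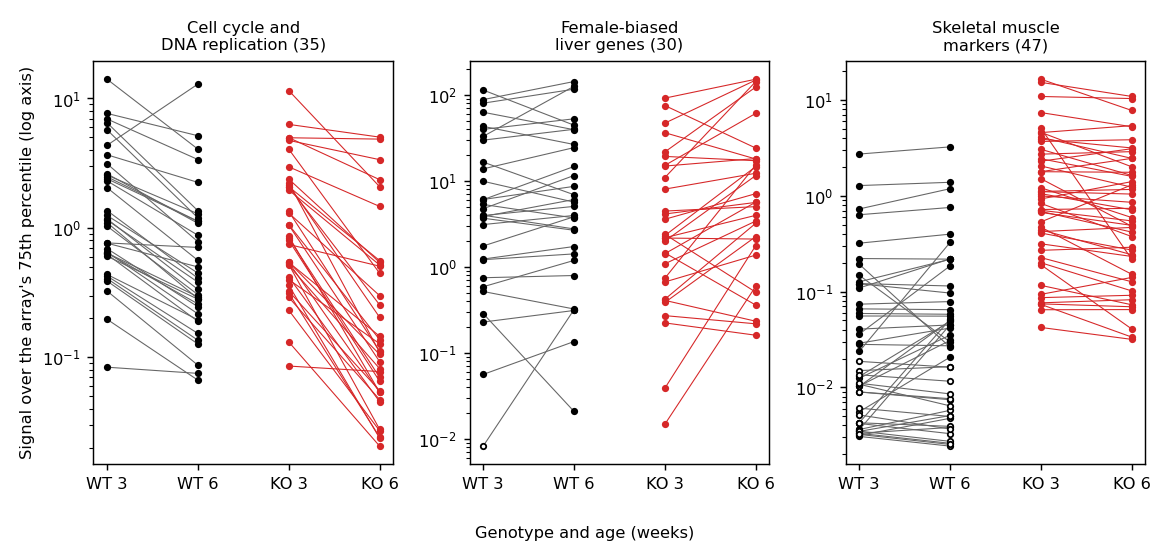
Signal of every measured member of 3 lists on the 4 arrays (vertical axis, log scale, signal over the array's 75th percentile; lines join the ages of a genotype; open points were not well above background). Most cell cycle genes are lower at 6 weeks in both genotypes and lowest in KO. Most female-biased genes are lower in KO than in WT at 3 weeks, and muscle markers are high on both KO arrays.

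Of 29 measured collagen and matrix genes 22 were at least 2-fold lower in KO at 6 weeks, beside 4.57% of all genes, and none was 2-fold higher, with a median of -1.56. Col3a1 and Col1a1, chains of the fibrillar collagens, read 11.6 and 4.35 at 3 weeks and 1.44 and 0.565 at 6 weeks, log2 ratios of -3.01 and -2.95. Eln, elastin, had -2.37, and Col4a1, of the basement membrane, -2.13. Sparc, a collagen-binding glycoprotein, was bright at both ages, 80.5 and 27.3 (-1.56). Fn1, fibronectin, which hepatocytes make for the plasma, read 93.3 and 107 (0.20), and Col18a1 read 45.2 and 60.3 (0.41). In WT the median was -0.97 with 13 of 29 lower by 2-fold, beside 3.22% of all genes measured on all 4 arrays. The KO ratio was the lower for 26 of 29 genes. Of these differences 2 reached 2-fold in that direction, beside 3.46% of all genes.

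Markers of the hepatic stellate cell, which makes much of this matrix, had a median of -0.77 in KO, with 6 of 17 lower by 2-fold, where 4.57% of all genes were, and none higher. Ngfr and Nes, nerve growth factor receptor and nestin, had -1.31 and -1.22 in KO and -0.43 and -0.28 in WT. Their part in the matrix values was not tested.

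Of 22 measured fetal and neonatal transcripts 13 were at least 2-fold lower in KO, beside 4.57% of all genes, and none was 2-fold higher, and the medians were -1.06 in KO and -1.02 in WT. Tff3, a secreted trefoil peptide, had the lowest ratio of all bright genes with a symbol, 12.2 and 0.192 in KO (63.3-fold lower) and 2.60 and 0.0872 in WT. H19, the imprinted growth-restraining RNA, read 94.6 and 5.17 in KO and 86.1 and 0.985 in WT. Its log2 ratio was -4.19 in KO on the brighter probe and -1.17 on the second probe, so its size is uncertain. Afp, alpha-fetoprotein, read 2.37 and 0.528 in KO (-2.17) and 0.807 and 0.148 in WT (-2.45). Gpc3, an oncofetal glypican, had -2.29 in KO and -3.53 in WT.

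On the KO array at 6 weeks several of these stood above WT: H19 was 5.17 against 0.985, Afp 0.528 against 0.148 and Gpc3 0.311 against 0.0802. At 3 weeks Afp was also the higher in KO, 2.37 against 0.807. Over the list the median log2 of KO over WT was 0.34 at 3 weeks and 0.30 at 6 weeks. Among 12 measured imprinted growth genes 4 were lower by 2-fold in KO, beside 4.57% of all genes. Mest, a hydrolase-like protein, led them with 1.39 and 0.106 (-3.72, WT -1.70). Mirg, a non-coding RNA of the Dlk1 to Dio3 cluster, was the 1 member past 2-fold the other way (1.24), and averaging its probes turned that to -0.48.

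In all 7 of 23 measured erythroid and heme genes were 2-fold lower, beside 4.57% of all genes, and 1, Klf1, was higher (1.58), with a list median of -0.07. Among the lower were globins: Hbb-b2 read 46.2 and 2.01 (-4.52) and Hba-a1 83.2 and 6.83 (-3.61). Slc4a1, the anion exchanger of red cells, read 0.358 and 0.0239 (-3.91, and as little as -2.52 with other processing). WT ratios of these 3 were -3.87, -3.62 and -4.56. Alas2, the heme synthesis enzyme of red-cell precursors, read 4.4 and 1.17 (-1.91, WT -1.75). The beta-globin copies are nearly identical in sequence, so their separate values are uncertain. Ahsp, the alpha-globin chaperone, was well above background only at 3 weeks and at least 19.1-fold lower at 6 weeks. Alas1, the form of that enzyme in other tissues, read 157 and 149.9 (-0.07), and the later enzymes Urod and Fech, ferrochelatase, had 0.09 and 0.18.

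The higher side held many genes known to be more abundant in female than in male liver. Of 30 measured female-biased genes 14 were at least 2-fold higher at 6 weeks in KO and 4 were 2-fold lower, where 4.49% of all genes were higher, and the median was 0.93. Sult1e1, estrogen sulfotransferase, read 0.742 at 3 weeks and 15.3 at 6 weeks in KO, 20.6-fold higher, while WT read 0.288 and 0.021. Its difference between genotypes was the largest among bright genes, 8.15 on the log2 scale. Sult2a7, a hydroxysteroid sulfotransferase, read 0.0391 and 1.77 (5.50). Sult3a1, an amine sulfotransferase, read 0.0149 and 0.598 (5.33, and as little as 3.17 with other processing). Sult2a1 and Sult2a2, of the same family as Sult2a7, were lower, at -1.64 and -1.01, and these copies share much sequence.

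Hamp2, a hepcidin paralogue, read 11 and 143 in KO and 33.0 and 126 in WT. Cux2, a homeobox repressor typical of female liver, had 2.54 in KO and 1.02 in WT. Acot3, a peroxisomal thioesterase, had 2.66 and 1.28, and Slc22a26, an organic anion transporter, 2.93 and 1.13. Cyp3a44 was the clearest exception in this list, from 2.40 to 0.51 (-2.23) in KO and from 9.94 to 5.69 (-0.80) in WT.

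For the 29 female-biased genes measured on all 4 arrays the KO ratio lay above the WT ratio in 21, and 12 of the differences were at least 2-fold higher, beside 4.08% of all genes. The median log2 of KO over WT was -0.91 at 3 weeks and 0.06 at 6 weeks. KO stood above WT for 6 of the 29 at 3 weeks and for 16 at 6 weeks. Of 25 measured male-biased genes 5 were 2-fold higher and 1 was lower, beside 4.49% and 4.57% of all genes, with a median of 0.12. Hsd3b5, a male-specific steroid dehydrogenase, was the lower one, 0.504 and 0.0726 (-2.80). Slco1a1 read 0.599 and 0.301 in KO and 0.0567 and 0.248 in WT. Mup20, a urinary pheromone carrier, read 70.3 and 48.3 in KO and 16.1 and 46.4 in WT, and the Mup genes are too alike to be separated with confidence.

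Of 21 genes of the growth hormone and IGF axis 1 was 2-fold higher and 2 were lower, beside 4.49% and 4.57% of all genes. The higher was Cish, a feedback inhibitor of the receptor (1.80 and 4.14, log2 1.20). The lower were Bcl6, a repressor opposed to STAT5, and Igfbp3 (-1.49 and -1.02). Igf1 read 27.5 and 27.8 in KO, and Ghr, the growth hormone receptor, 15.2 and 16.8. WT ratios for Cish, Bcl6 and Igfbp3 were 0.94, -1.19 and -0.98, near those of KO.

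Acute phase genes held 6 of 29 members past 2-fold upward, each of the 6 more than 6-fold, beside 4.49% of all genes, and Saa3 was 2-fold lower (-1.68). Saa1 and Saa2, the serum amyloid A proteins of hepatocytes, read 13.6 and 11 at 3 weeks and 145 and 124 at 6 weeks in KO (3.41 and 3.49). In WT they read 7.88 and 5.77, then 6.67 and 5.55. The Saa pair thus stood high on 1 array of 4, the KO array at 6 weeks.

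The orosomucoids, acid glycoproteins of plasma, were higher at 6 weeks in both genotypes and by more in KO. Orm1 read 2.46 and 34.4 in KO and 5.51 and 19.2 in WT. Orm2 followed with 3.71 in KO and 1.64 in WT, and Orm3 with 5.22 and 1.46. The Saa and the Orm copies are alike enough for their probes to share signal. Hamp, hepcidin, which limits iron export, read 7.69 and 52.5 in KO and 10.2 and 53.8 in WT, so its ratio was of like size in both (2.77 and 2.40). The remaining classical acute phase proteins were within 2-fold, among them Hp, haptoglobin (0.18), Fgb, fibrinogen beta (0.18), and Crp (-0.08). Lcn2, lipocalin 2, read 5.77 and 9.62 in KO and 4.80 and 1.09 in WT (0.74 and -2.14).

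Mt2 and Mt1, the zinc-binding metallothioneins, were within 2-fold in KO and past it in WT. Mt2 read 112 and 162 in KO but 76.5 and 11.55 in WT. Mt1 read 150.3 and 195 in KO and 111 and 29.9 in WT. No member of the 11 metallothionein and zinc transporter genes was 2-fold different between the ages in KO, beside 9.06% of all genes. Complement and coagulation factors also showed 0 of 38 past 2-fold, beside the same 9.06%. Their median of 0.23 turned to -0.01 with quantile normalization. Medians of the hepatocyte, respiratory chain and gluconeogenesis lists also turned to -0.01 with normexp correction and quantile normalization, so no direction is given for these 4 lists.

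Dmbt1, a scavenger-receptor glycoprotein of mucosal surfaces, had the highest ratio of all bright genes in KO, 0.0672 and 5.25 (78.1-fold), and was higher in WT too, 0.422 and 8.16. Wfdc21, a small protease-inhibitor-like protein, read 8.38 and 68.9 in KO (3.04, WT 1.61). Nmrk2, a nicotinamide riboside kinase typical of muscle, read 0.102 and 1.41 in KO and stayed at 0.0186 and 0.0161 in WT. Ankrd2, a muscle ankyrin-repeat protein, read 0.333 and 2.22 in KO and 0.132 and 0.0638 in WT. Both genes are known from muscle. Of 47 measured skeletal muscle markers 15 had a KO ratio above 0 and 32 below. The part of muscle signal in the values of Nmrk2 and Ankrd2 was not tested.

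**Figure D3:**
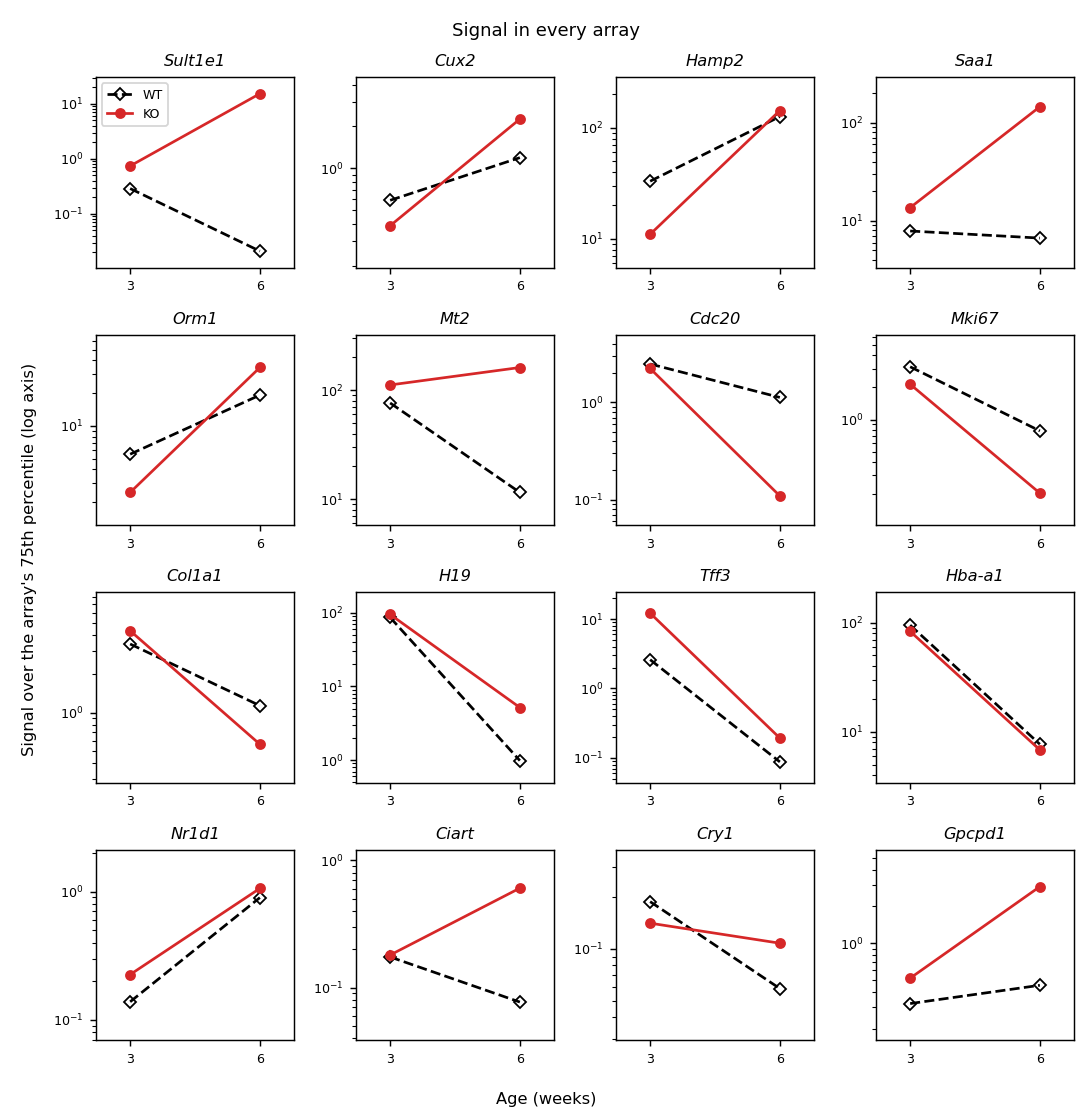
Signal of 16 genes on each of the 4 arrays against age in weeks (vertical log axis, signal over the array's 75th percentile; filled circles KO, open diamonds WT; 1 array per point). Sult1e1 and Ciart diverge between genotypes, Hamp2 and Hba-a1 run close together at 6 weeks, and Saa1 is high on the KO array at 6 weeks alone.

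Of 31 measured xenobiotic cytochromes and targets of the nuclear receptors CAR and PXR, 9 were at least 2-fold higher in KO and 2 lower, beside 4.49% and 4.57% of all genes. The ratio was above 0 for 28 of them, and the median was 0.70 in KO and 0.24 in WT. Cyp2b10, the classical CAR target, read 15.2 and 61.2 in KO and 39.9 and 52.9 in WT. Nr1i3, the gene of CAR itself, read 7.87 and 22.4 (1.51) beside 9.11 and 10.9 in WT. Cyp2c39 had 1.52 in KO and 0.24 in WT, and Cyp2a4 read 47.1 and 149 in KO and 88.4 and 144 in WT. Cyp2c55 was lower, 0.393 and 0.0914 (-2.10). Several of these genes sit also in the female-biased list, and Cyp2b and Cyp3a copies are near-identical, so the lists do not count independently.

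Bile acid genes showed 5 of 27 at least 2-fold higher, beside 4.49% of all genes, and none 2-fold lower, with a median of 0.51. The 5 were 4 transporters and Cyp7b1, a hydroxylase of the alternative pathway (1.55). Abcc3 and Abcc4, which export bile acids to the blood, had 1.56 and 1.33, and Slco2b1, an uptake transporter, read 2.70 and 10.6 (1.98). Cyp7a1, the rate-limiting enzyme of bile acid synthesis, read 11 and 6.55 in KO (-0.75) and 10.7 and 2.24 in WT (-2.26). Glutathione transferases Gstt3 and Gsta2 were higher in KO (1.64 and 1.52, WT 0.50 and 0.27).

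Of 36 genes of the urea cycle and amino acid breakdown 4 were 2-fold higher in KO and 1, Acmsd, was lower, beside 4.49% and 4.57% of all genes. The KO ratio was above 0 for 30 of the 36, and the medians were 0.41 in KO and -0.14 in WT. The KO ratio was the higher in 32 of 36, with 7 of the differences at least 2-fold higher, beside 4.08% of all genes. This was not particular to the list. The KO ratio was also the higher for 21 of 23 hepatocyte markers and 26 of 30 respiratory chain genes. Oat, ornithine aminotransferase, read 11.2 and 33.8 in KO and 10.1 and 12.5 in WT. Hal, histidine ammonia-lyase, had 1.58 in KO and 1.01 in WT. Prodh, proline dehydrogenase, read 19.7 and 52.9 in KO and 31.4 and 24.8 in WT. The urea cycle proper was close to level in KO, with Cps1 at -0.15, Otc at 0.17, Ass1 at 0.23 and Arg1 at 0.28, and Asl at 0.74.

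Among 33 measured choline and phosphatidylcholine genes 3 were 2-fold higher and 2 lower in KO, where 4.49% and 4.57% of all genes were. Gpcpd1, a phosphodiesterase that splits glycerophosphocholine into choline and glycerol phosphate, read 0.518 and 2.90 (2.49) in KO and 0.321 and 0.453 in WT. Slc44a1, a choline transporter, had 1.21, or 0.87 when its probes were averaged. Chpt1, the last enzyme of the CDP-choline route, had 1.06 on its brighter probe and -0.04 on the second, and 0.51 when they were averaged. Chka, choline kinase alpha, was lower in KO, 1.66 and 0.733 (-1.18), and slightly higher in WT (0.35). Gdpd1, a lysophospholipase D, had -1.15 in KO and -0.92 in WT. Pemt, which makes phosphatidylcholine by methylation, was level at 48.7 and 53. The list median was 0.20, against 0.08 over all genes.

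In the methionine cycle and one-carbon list 1 of 36 genes was 2-fold higher, Dmgdh, dimethylglycine dehydrogenase (20.4 and 41.9, log2 1.04), and 3 were lower, beside 4.49% and 4.57% of all genes. With normexp correction and quantile normalization Dmgdh had 0.80. Among the 3 lower genes were Mthfd2 (-1.73, or -0.87 in that setting) and Csad (-1.45). Csad, which makes the taurine precursor hypotaurine, read 9.81 and 3.58 in KO and 13.8 and 26.8 in WT, so the genotypes lay on opposite sides. Bhmt, which remethylates homocysteine with betaine, read 170.5 and 264 in KO and 190.3 and 76.6 in WT. Ahcy and Gnmt, which handle S-adenosylhomocysteine and S-adenosylmethionine, had 0.97 and 0.86 in KO and -0.04 and -0.05 in WT. The median difference between genotypes was 0.39, and 6 of 36 differences were 2-fold higher, beside 4.08% of all genes.

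Lipid genes were mostly within 2-fold between the ages in KO, where 9.06% of all genes were past it. In fatty acid and triglyceride synthesis 1 of 30 was past 2-fold, Fads2, a desaturase (11.4 and 5.29, log2 -1.11). In fatty acid oxidation 1 of 33 was, Cidea, a lipid droplet protein (-1.50, or -0.86 with normexp correction and quantile normalization, WT -3.60). Cholesterol synthesis genes had a median of -0.30 with 0 of 25 past 2-fold in KO. In WT their median was -0.76 with 9 of 25 lower by 2-fold, beside 3.22% of all genes measured on all 4 arrays. The KO ratio was the higher for 23 of 25. Msmo1, a sterol demethylating enzyme, read 28.1 and 29.3 in KO and 26.9 and 9.77 in WT.

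The median of the core clock genes had a different sign in the genotypes. Of 19 measured, in KO 7 were higher by 2-fold or more and 2 were lower, beside 4.49% and 4.57% of all genes, and the median was 0.78. The WT median was -0.60 with 1 higher and 5 lower, beside 2.22% and 3.22% of all genes measured on all 4 arrays. Differences of 2-fold in the higher direction were found for 10 of the 19, beside 4.08% of all genes. Nr1d1, the repressor REV-ERB alpha, was higher in both, 0.225 and 1.06 in KO (2.23) and 0.138 and 0.897 in WT (2.70). Dbp, an output transcription factor, was also higher in both (1.57 and 0.96). Ciart, a repressor of CLOCK and BMAL1, read 0.180 and 0.605 in KO (1.75) and 0.174 and 0.077 in WT (-1.18). Usp2, a clock-controlled protease, behaved alike, with 1.11 in KO and -1.27 in WT. Arntl, the gene of BMAL1, was lower in both (-1.51 and -0.73), and Nfil3 was lower in KO (-1.18).

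The Ciart promoter is shown because it holds 3 copies of the E-box, CACGTG, the element bound by CLOCK and BMAL1. It lies on the minus strand at chr3:95882229-95882358 in GRCm38.p6, and the 130 bases before the start are printed with the E-boxes in capitals.

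Ciart: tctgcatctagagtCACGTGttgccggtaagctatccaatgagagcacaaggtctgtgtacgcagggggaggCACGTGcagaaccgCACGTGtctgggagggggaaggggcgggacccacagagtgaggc

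In the 250 bases before the start, CACGTG occurred in 4 of the 16 clock genes with a promoter in the table (25%) and in 6.86% of all 27025 promoters. The motif reads the same on both strands. Clock transcripts follow the time of day, which is not given for any pool, so age and hour of collection cannot be told apart.

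The 19 Kupffer cell and macrophage genes, markers of resident macrophages, had a median of -0.67 in KO and 0.01 in WT, and the KO ratio was the lower for 17 of 19. Lower by 2-fold were 2 of them, beside 4.57% of all genes. These were Marco, a scavenger receptor (12.6 and 2.89, log2 -2.12), and Adgre1, the F4/80 antigen (2.36 and 0.776, -1.61). Marco was lower in WT too (-1.82), while Adgre1 read 2.35 and 2.27 there. Clec4f, specific to Kupffer cells, had -0.84 in KO and 0.08 in WT. The 23 sinusoidal endothelial markers had medians of -0.33 in KO and 0.06 in WT. Of them 2 were lower by 2-fold in KO, Lyve1 (-1.39) and Cdh5 (-1.31), beside 4.57% of all genes. Higher by 2-fold was 1, Wnt2 (1.12), beside 4.49% of all genes. Wnt2 was dim, 0.0328 and 0.0713, and had 0.52 with normexp correction and quantile normalization.

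Of 13 neutrophil and monocyte markers 6 were lower by 2-fold in KO, beside 4.57% of all genes. In WT 9 of them were, beside 3.22% of all genes measured on all 4 arrays. Mpo, myeloperoxidase, read 0.171 and 0.0143 in KO (-3.58) and 0.273 and 0.0176 in WT. It was dim at 6 weeks, and its KO ratio was as little as -1.86 with other processing. S100a9, a calprotectin subunit, had -1.77 in KO and -2.66 in WT. Of 19 T and NK cell markers 0 were past 2-fold, beside 9.06% of all genes, with a median of -0.02. The 12 B cell markers had a median of -0.22, with 7 below 0, among them Cd79b and Ms4a1, of the B cell surface, at -0.87 each. Of these 12, 2 were higher by 2-fold, Vpreb3 (1.44) and Jchain (1.29), beside 4.49% of all genes.

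Interferon-stimulated genes had a median of -0.11 in KO and 0.41 in WT, and the KO ratio was the lower for 28 of 34. Differences at least 2-fold lower in KO numbered 9, beside 3.46% of all genes. In KO Rsad2, an antiviral radical enzyme, read 0.779 and 0.278 (-1.48), and Cxcl10, a chemokine, 1.30 and 0.636 (-1.03). Isg15, a ubiquitin-like modifier, read 5.38 and 2.87 in KO and 4.81 and 6.39 in WT. Cytosolic heat shock genes were 2-fold lower in KO for 5 of 21, beside 4.57% of all genes, and 2-fold higher for none. Hspa1a, inducible HSP70, had -1.84 in KO and 0.22 in WT, Hsph1 -1.68 and -0.01, and Hsp90aa1 read 16.1 and 5.79 in KO (-1.47) and 17.7 and 15 in WT.

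Of 27 measured genes of the integrated stress response 9 were lower by 2-fold in KO and 4 higher, beside 4.57% and 4.49% of all genes. Phgdh, which starts serine synthesis, read 1 and 0.0558 in KO (-4.17, WT -3.31), Psat1 had -2.82 and -2.21, and Asns, asparagine synthetase, -2.44 and -2.53. The 4 higher were Trib3, a pseudokinase (1.83 and 8.21, log2 2.17), Chac1 (1.73), Vldlr (1.65) and Ddit4 (1.29). The growth factor Gdf15 was lower in KO, 2.36 and 1.03 (-1.20), and steady in WT (-0.05).

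Some single genes lay far from any list. Esm1, an endothelial proteoglycan, read 2.10 and 0.0959 in KO (-4.46) and 0.469 and 0.110 in WT. Hsd3b1 and Akr1c18, which make and inactivate progesterone, had -5.02 and -4.46 in KO and -3.29 and -4.59 in WT. Nkd2, a Wnt pathway antagonist, read 14.9 and 19 in WT and 17.8 in KO at 3 weeks, but 0.713 in KO at 6 weeks. Cnr2, a cannabinoid receptor, had the same single low array, at 0.3 there, while the lowest of its other arrays read 2.88. Each of these low values rests on 1 probe on 1 array. Aoc2, an amine oxidase, read 8.67 on that array and at least 52.8 on the others by its brighter probe (-2.66), but its second probe had -0.32.

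Skeletal muscle markers differed between the KO arrays less than between genotypes. Of 47 measured, 9 were at least 2-fold lower at 6 weeks and 1 was higher, beside 4.57% and 4.49% of all genes, with a median of -0.44. Myh4, the fast IIb myosin, read 5.04 and 0.217 (-4.54). Myh1, of IIx fibres, read 4.59 and 2, and Ckm, muscle creatine kinase, 0.831 and 0.375. Myh2, of IIa fibres, read 4.56 and 5.39, Acta1, skeletal actin, 10.9 and 10.3, and Mb, myoglobin, 2.72 and 2.89. Myl2, of slow fibres, was higher (1.28). The IIb myosin was thus lower while IIa myosin, actin and myoglobin were nearly level. Leaving out the list changed the counts of genes past 2-fold to 883 higher and 890 lower. That step removes only the listed members, so it does not test muscle signal in other genes.

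**Figure D4:**
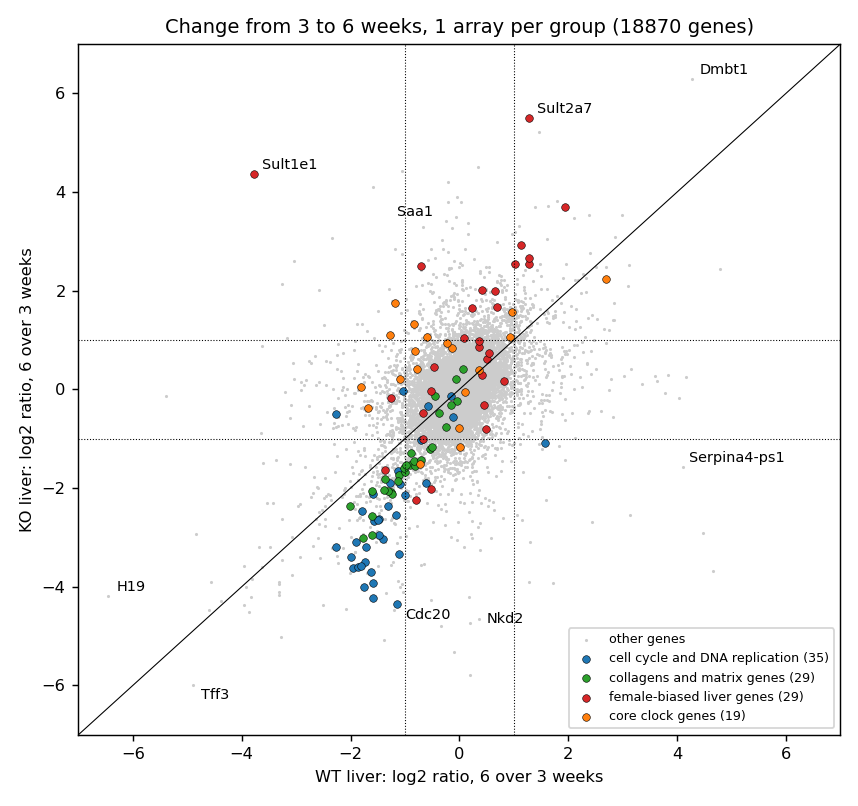
Log2 ratio of 6 over 3 weeks in KO (vertical) against WT (horizontal) for the 18870 genes well above background on all 4 arrays, 1 array per group. The solid line marks equal ratios and dotted lines mark 2-fold; most cell cycle and matrix genes lie below the solid line, and Sult1e1 lies in the corner of opposite sign.

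The age ratios of KO and WT share no array, and over 18870 genes measured on all 4 they correlated with a Pearson r of 0.46 and a Spearman rho of 0.43. That is a description across genes, which are not independent replicates, of arrays on the same slide. The sign was shared by 65.6% of genes. Among the 8763 brighter genes the values were 0.56, 0.49 and 68.6%. The spread was wider in KO: 723 genes were higher and 846 lower by 2-fold in KO, and 419 and 608 in WT. Over the 19301 genes measured on both WT arrays, 2.33% were higher and 3.71% lower by 2-fold, 6.05% in all. Genes higher in both numbered 171, which is 23.7% of the KO list and 40.8% of the WT list. Genes lower in both numbered 295, 34.9% of the KO list and 48.5% of the WT list.

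Differences between the genotypes' ratios reached 2-fold for 1421 genes, 7.53%. In 23 cases the gene was 2-fold higher in KO and 2-fold lower in WT, and in 21 cases the reverse. Genes past 2-fold in KO that stayed within 1.5-fold in WT numbered 349 higher and 371 lower. Over all 18870 genes the WT log2 ratio was -0.77 at the 5th percentile and 0.66 at the 95th. The share of all genes within 1.5-fold in WT was not counted, so these numbers are not read as particular to KO. For 424 of the 723 higher genes (58.6%) the 3 arrays other than KO at 6 weeks lay within 2-fold of each other. The same held for 376 of the 846 lower genes (44.4%). The corresponding numbers for the KO array at 3 weeks against the other 3 were 129 and 193, and 83 genes in each direction met both criteria. How many of all genes met either criterion was not counted, so these numbers do not set an array apart. The KO array at 6 weeks had the widest spot-to-spot spread, and its part in these counts was not tested.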

How the data were processed

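Total RNA of mouse liver was pooled from 5 animals per group and hybridised to 4 one-colour (Cy3) Agilent arrays on 1 slide, per the labels. The submitters' processing notes name Agilent Feature Extraction, version 11.5.1.1, for the scanner files the authors deposited. The processed intensity in them is background-subtracted, per the file headers. The other columns used are flags of 0 or 1 that the authors deposited for each spot. A deposited table of the authors gives the ratio of that intensity to each array's 75th percentile, and its column medians were 0.0878 and 0.0896 (WT and KO, 3 weeks) and 0.0853 and 0.0864 (6 weeks).

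Control spots and 189 to 252 outlier spots per array were left out, the log2 intensity minus that of the 75th percentile was taken, and spots of a probe were averaged. Of 39429 probes, 27502 were named by accession, 3549 by symbol and 404 by synonym in a RefSeq table (GRCm38.p6), and 7974 kept the file's name. A gene took its brightest probe. Where 1 array of a pair was not well above background, only a bound is given, with the dim signal set to the lowest one well above background on that array, or to the gene's own if larger. Genes were counted at 2-fold. Tools were limma 3.58.1 in R 4.3.3, Python 3.11.15, numpy 2.4.6, pandas 2.3.3 and matplotlib 3.10.9. The limma step was tested on simulated data. Promoters are from RefSeq. The number of arrays limits all precision.

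Members and lists were chosen with earlier results of these data known. Named genes are the 15 highest and lowest bright genes (signal of 1 or more on an array compared), the 5 highest and lowest of all, the 5 highest and lowest bounds, the 10 highest and lowest differences between genotypes, up to 6 members of each list, all choline, methionine and growth hormone genes past 2-fold, Pnpla7 and sex-linked genes. Other genes in the text were picked once their values had been seen. Some genes that this rule names are not reported here. Alternatives were other normalizations, filters, probe rules and thresholds, and other limma settings.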

Additional observations from a re-analysis of the deposited data

Results flagged for a closer look

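Some results had opposite directions in the genotypes, with 1 array for each group, so the difference was not tested in any of them. Sult1e1 had log2 age ratios of 4.37 in KO and -3.78 in WT, a difference of 8.15. Ankrd2, the muscle ankyrin-repeat gene, had 2.74 and -1.05, a difference of 3.79. Lrtm1, a leucine-rich repeat membrane protein, read 1.38 and 3.38 in KO and 2.74 and 0.492 in WT, a difference of 3.78. The clock genes Ciart and Usp2 differed by 2.92 and 2.38.

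In the other direction, Serpina4-ps1, a serpin pseudogene, read 0.937 and 0.317 in KO and 0.533 and 9.21 in WT, a difference of -5.67. Spon2, a secreted matrix protein, read 0.974 and 0.285 in KO and 0.767 and 2.39 in WT, a difference of -3.41. Ccnd1, cyclin D1, differed by -2.65. Tnni2, fast troponin I, read 16.4 and 7.76 in KO and 0.109 and 0.219 in WT, a difference of -2.09. Among gene lists, the core clock genes had a median difference of 1.17 and the urea cycle and amino acid genes of 0.51, with medians of opposite sign in the genotypes.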

How the results depend on the processing

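Counts of genes past 2-fold depended on the processing. With normexp and quantile normalization, 472 genes were higher and 575 lower in KO, and the difference between genotypes reached 2-fold for 386 and 397. With bounds for genes well above background on at least 1 array, 1375 were lower, and differences numbered 1895 and 1194. With no filter the 4 counts were 2026, 2236, 2835 and 2194. At 1.5-fold they were 2329, 2149, 1992 and 1784, and at 3-fold 321, 393, 278 and 228. Among bright genes they were 257, 250, 194 and 197. Median and quantile scaling, the filter on all 4 arrays, averaging a gene's probes, keeping outlier spots, using the authors' table and leaving out muscle markers (chosen after seeing the data) left the counts within 1.5 times. The filter on all 4 arrays is already the rule for the differences. Leaving out muscle markers drops only the listed genes, so its small change in the counts was fixed in advance. The limma counts were 17 higher and 60 lower when the variance prior had a trend, and 1 lower without the genotype term. Of 151 named genes past 2-fold 150 kept their sign in all 9 settings tried on them, the exception being Mirg (-0.48 with the mean of all probes). Filters, median scaling and the authors' table leave the ratio of such a gene unchanged or nearly so. They could not have reversed its sign and are no check of it. Sizes moved by more than the spot SD for 150 of all 241 named genes and 17 of 38 list medians with normexp and quantile normalization, for 53 and 13 with quantile normalization, and for 40 and 5 with the mean of all probes, which reversed Mirg besides. Some genes past 2-fold fell short of it in a setting: with normexp and quantile normalization Adipoq (-0.49), Retn (-0.79), Gdpd1 (-0.70), Jchain (0.74) and Wnt2 (0.52), and with the mean of all probes Fads2 (-0.88). List medians kept their sign in all 9 settings for 28 of 38 lists. No paired analysis was possible because each group has 1 array. Signal near background limits dim genes, of which 8056 were not well above background on either KO array. The causes of these shifts were not tested.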

Other observations

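Some transcripts of digestive enzymes of the exocrine pancreas were well above background in KO liver at 6 weeks. Try4, a trypsin, was well above background only on the KO array at 6 weeks, at 0.138, and was at least 13.6-fold higher than in KO at 3 weeks. Cpa1, a carboxypeptidase, read 0.0882 there and was at least 8.69-fold higher. Clps, pancreatic colipase, read 0.121 and 0.419 in KO (1.79) and 0.142 and 0.140 in WT. Cela1, an elastase, went the other way, with 0.0685 and 0.0387 in KO (-0.82). Of the list of 20 pancreatic and adipose markers 2 of 13 measured were 2-fold higher, Clps and Ucp1, a thermogenic protein of brown fat (1.97), beside 4.49% of all genes. The 2 lower were Retn and Adipoq, hormones of fat cells, at -1.25 and -1.18.

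Some genes were well above background on 1 KO array alone. Il13, a type 2 cytokine, read 0.635 on the KO array at 6 weeks and was at least 62.6-fold higher than at 3 weeks. Etv2, an endothelial transcription factor, Sgpp2, a phosphatase of sphingosine phosphate, Bsn, a presynaptic scaffold, and Mageb16 followed with at least 32.3-fold, 29.9-fold, 27.7-fold and 22.7-fold. In the other direction Ppp5c, a serine/threonine phosphatase, read 1.57 in KO at 3 weeks and was at least 116-fold lower at 6 weeks, while WT read 1.66 and 1.74. Ctse, a cathepsin, and Adamts16, a matrix protease, were at least 29.6-fold and 24.0-fold lower, and Zcchc13 at least 22.9-fold. Zcchc13 read 0.354 in KO at 3 weeks but 0.0155 and 0.0188 in WT, so its high value stood on 1 array. Each bound rests on 1 array for each age. The KO array at 6 weeks was the noisiest, with 1 of 10 quality metrics out of range.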
